A study of Homo sapiens with 8 samples.

Results

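The regions described here are 385 binding sites of NFYB that were found in 3 libraries without PAX3 editing and in neither library with it. Each is a peak of the RH30 sgCtrl2 list that overlapped, by 1 bp or more, a peak of the RH30 sgCtrl1 list and a peak of the RH4 NFYB list, and overlapped no peak of the sgCCAAT2a list and no peak of the sgCCAAT2b list. They are 385 of the 2058 sgCtrl2 peaks shared with sgCtrl1 and RH4 NFYB, and of the 6687 sgCtrl2 peaks in all. They are set beside 1414 peaks that met the first condition and overlapped a peak in both edited lists, called kept below. The remaining 259 shared peaks were found in 1 edited list, 86 with sgCCAAT2a and 173 with sgCCAAT2b. The sites were chosen by their presence in the control and RH4 NFYB lists and absence from the edited lists, so that absence is described and not tested.

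The peaks come from CUT&RUN, which maps a protein by cutting the DNA next to an antibody bound to it. The edited groups are RH30 cells with an inducible cytosine base editor, given the guide RNA sgCCAAT2a or sgCCAAT2b against a CCAAT motif of the PAX3 promoter, selected with blasticidin, and collected on day 8 of rapamycin, which switches the editor on. The control groups are RH30 cells with the same editor, selection and rapamycin and the guide sgCtrl1 or sgCtrl2. Uninfected, untreated RH4 cells gave the lists for NFYB and NFYC. RH30 and RH4 are established rhabdomyosarcoma lines, both labelled as carrying the PAX3-FOXO1 fusion. The libraries titled RH30 have RH4 in their cell line label, and are called RH30 after their titles and the design text. Every group is 1 library, so there is no replicate error and no test between guides; the 95% intervals given (exact binomial, Clopper-Pearson) reflect counting error only. Per the labels, editing at the CCAAT site was checked by Sanger sequencing; no level is given.

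The NF-Y complex has the subunits NFYA, NFYB and NFYC and binds the pentamer CCAAT, read as ATTGG on the other strand, mostly in promoters just upstream of the start of transcription. NFYB and NFYC pair through histone-like folds, and NFYA reads the CCAAT bases. In rhabdomyosarcoma with the PAX3-FOXO1 fusion, the PAX3 promoter drives the fusion oncogene.

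The promoters below are examples picked by place or by gene, and do not stand for the absent sites as a whole. PAX3, the edited locus, comes first. Sequences are those of RefSeq (GRCh38.p14), 5′ to 3′ on the gene's strand, from 250 bases before the start of the gene to 50 from it on, with CCAAT and ATTGG in capitals. PAX3 lies at chr2:222298949-222299248, minus strand.
PAX3: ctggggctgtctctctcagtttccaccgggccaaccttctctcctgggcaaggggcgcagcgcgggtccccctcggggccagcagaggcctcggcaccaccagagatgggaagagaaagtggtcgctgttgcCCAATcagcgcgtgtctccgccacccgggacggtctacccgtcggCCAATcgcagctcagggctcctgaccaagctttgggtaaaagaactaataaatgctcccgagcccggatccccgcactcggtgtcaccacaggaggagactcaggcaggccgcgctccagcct
The promoter of PAX3 held 2 CCAAT motifs, both in the direction of the gene and both inside the sgCtrl2 peak, centred 116 bp and 71 bp before the start. The files do not give the guide sequences, so which of the 2 motifs each guide addresses is not stated here.

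The next 5 promoters are those of the highest placed absent peaks with at least 50% of the peak in the promoter of 1 gene. They are KHSRP (chr19:6424762-6425061, minus strand), PPP2R1A (chr19:52189802-52190101, plus strand), CDK4 (chr12:57752261-57752560, minus strand), MOSPD3 (chr7:100612132-100612431, plus strand) and LOC100652758 (chr5:151771459-151771758, minus strand).
KHSRP: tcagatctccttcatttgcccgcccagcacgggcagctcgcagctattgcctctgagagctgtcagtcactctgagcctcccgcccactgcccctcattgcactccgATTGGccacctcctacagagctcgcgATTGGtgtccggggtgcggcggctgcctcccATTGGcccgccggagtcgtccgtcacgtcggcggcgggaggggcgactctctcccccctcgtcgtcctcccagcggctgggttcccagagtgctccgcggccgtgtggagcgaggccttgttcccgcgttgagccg
PPP2R1A: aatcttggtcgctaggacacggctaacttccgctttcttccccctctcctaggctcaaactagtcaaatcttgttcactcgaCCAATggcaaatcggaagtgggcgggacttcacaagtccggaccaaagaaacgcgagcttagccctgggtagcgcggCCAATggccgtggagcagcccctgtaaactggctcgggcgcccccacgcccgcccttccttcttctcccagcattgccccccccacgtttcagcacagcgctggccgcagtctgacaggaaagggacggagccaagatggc
CDK4: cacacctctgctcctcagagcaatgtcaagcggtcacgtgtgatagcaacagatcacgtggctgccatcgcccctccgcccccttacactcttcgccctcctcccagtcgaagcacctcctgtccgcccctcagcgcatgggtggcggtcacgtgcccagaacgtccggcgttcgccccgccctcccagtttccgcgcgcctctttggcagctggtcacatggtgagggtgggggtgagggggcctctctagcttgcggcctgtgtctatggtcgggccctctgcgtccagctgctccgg
MOSPD3: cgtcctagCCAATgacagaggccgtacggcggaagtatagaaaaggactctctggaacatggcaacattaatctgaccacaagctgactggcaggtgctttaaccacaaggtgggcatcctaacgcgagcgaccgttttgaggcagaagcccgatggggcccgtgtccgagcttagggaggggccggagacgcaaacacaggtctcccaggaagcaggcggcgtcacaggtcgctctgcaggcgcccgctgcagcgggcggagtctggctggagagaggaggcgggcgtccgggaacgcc
LOC100652758: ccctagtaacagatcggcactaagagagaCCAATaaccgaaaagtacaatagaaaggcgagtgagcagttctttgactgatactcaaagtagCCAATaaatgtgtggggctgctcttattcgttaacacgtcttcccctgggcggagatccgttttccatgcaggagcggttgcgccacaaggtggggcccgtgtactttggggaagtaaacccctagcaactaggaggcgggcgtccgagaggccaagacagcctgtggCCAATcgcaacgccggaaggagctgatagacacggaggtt
These held 3, 2, 0, 1 and 3 motifs in the same order. In 4 of them, all but CDK4, an edited peak lay within 1000 bp, as described below. Among all 385 absent peaks this held for 5.19%. Of the motifs of LOC100652758, 1 lay inside the peak, 12 bp after the start.

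The following 4 were added after values had been seen: YJU2B (chr19:13747645-13747944, plus strand), RBM4B (chr11:66677838-66678137, minus strand) and FAM98C (chr19:38402843-38403142, plus strand) are the 3 highest placed absent peaks, PAX3 aside, that lay wholly inside the promoter of 1 gene with no edited peak within 1000 bp, and ALK (chr2:29921537-29921836, minus strand) is a receptor tyrosine kinase reported as a target of the fusion protein.
YJU2B: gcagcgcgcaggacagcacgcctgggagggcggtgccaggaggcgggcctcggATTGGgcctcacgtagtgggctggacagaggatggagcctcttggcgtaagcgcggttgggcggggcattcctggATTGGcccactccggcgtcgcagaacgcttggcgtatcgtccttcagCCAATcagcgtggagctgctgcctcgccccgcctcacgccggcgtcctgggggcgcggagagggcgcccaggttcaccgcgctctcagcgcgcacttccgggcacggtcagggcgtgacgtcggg
RBM4B: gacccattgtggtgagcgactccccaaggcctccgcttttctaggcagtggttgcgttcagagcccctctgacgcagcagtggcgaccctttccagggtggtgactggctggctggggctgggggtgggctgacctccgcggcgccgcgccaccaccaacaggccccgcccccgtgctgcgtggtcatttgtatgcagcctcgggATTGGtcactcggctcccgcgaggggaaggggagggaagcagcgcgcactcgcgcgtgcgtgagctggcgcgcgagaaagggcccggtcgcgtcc
FAM98C: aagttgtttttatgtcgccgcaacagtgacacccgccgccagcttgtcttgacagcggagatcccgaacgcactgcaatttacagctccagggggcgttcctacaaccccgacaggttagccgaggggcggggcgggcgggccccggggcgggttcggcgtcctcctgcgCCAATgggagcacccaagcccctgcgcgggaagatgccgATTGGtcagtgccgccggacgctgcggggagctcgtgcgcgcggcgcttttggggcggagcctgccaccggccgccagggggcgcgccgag
ALK: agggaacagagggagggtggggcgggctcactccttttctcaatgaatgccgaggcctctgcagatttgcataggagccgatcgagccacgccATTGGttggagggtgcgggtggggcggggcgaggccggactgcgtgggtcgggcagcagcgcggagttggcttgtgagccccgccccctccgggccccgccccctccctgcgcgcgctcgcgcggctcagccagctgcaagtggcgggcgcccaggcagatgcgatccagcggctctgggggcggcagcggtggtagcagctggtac
YJU2B had 3 motifs and FAM98C had 2. RBM4B and ALK had a single motif, centred 43 bp and 155 bp before the start.

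For comparison, the 2 highest placed kept peaks with at least 50% of the peak in the promoter of 1 gene lay at CCNK (chr14:99481159-99481458, plus strand), a cyclin of transcriptional kinases, and KAT6B (chr10:74826350-74826649, plus strand), a histone acetyltransferase.
CCNK: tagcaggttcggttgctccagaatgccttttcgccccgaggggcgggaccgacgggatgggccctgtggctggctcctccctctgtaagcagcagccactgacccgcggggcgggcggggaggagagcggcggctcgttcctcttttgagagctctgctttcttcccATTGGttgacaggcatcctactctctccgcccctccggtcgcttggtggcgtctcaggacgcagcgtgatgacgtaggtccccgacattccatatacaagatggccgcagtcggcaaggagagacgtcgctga
KAT6B: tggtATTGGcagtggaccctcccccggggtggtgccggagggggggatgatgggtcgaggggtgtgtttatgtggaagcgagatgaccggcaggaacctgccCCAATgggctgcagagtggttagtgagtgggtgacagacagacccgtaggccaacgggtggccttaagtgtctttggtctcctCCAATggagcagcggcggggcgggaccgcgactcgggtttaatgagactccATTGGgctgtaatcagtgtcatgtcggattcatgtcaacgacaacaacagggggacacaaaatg
CCNK held 1 motif, outside the sgCtrl2 peak, and KAT6B held 4. Of those of KAT6B, the motifs 38 bp and 60 bp from the peak centre lay inside the peak. Those 143 bp and 194 bp away lay outside it.

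PAX3, a transcription factor of muscle progenitors, had no peak within 1000 bp of its start with sgCCAAT2a or sgCCAAT2b. In the controls its peak lay at positions 222299014 to 222299202 of chromosome 2 with sgCtrl1 and at 222299005 to 222299201 with sgCtrl2, in hg38. In RH4 cells it lay at 222298920 to 222299147 for NFYB and at 222299050 to 222299142 for NFYC. All 4 peaks cover both CCAAT motifs. The nearest edited peak to the PAX3 site was 410290 bp away with sgCCAAT2a and 410356 bp away with sgCCAAT2b. The RH4 NFYB peak of PAX3 was 228 bp wide, where the absent peaks had a median width of 360 bp in RH4.

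**Figure D1:**
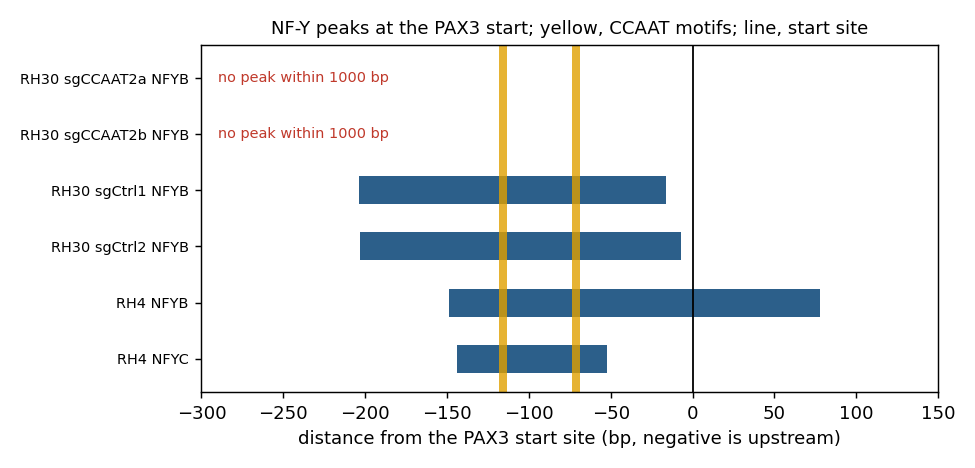
NF-Y peaks (bars) within 300 bp upstream and 150 bp downstream of the PAX3 start site, one row per library, with distance in bp on the x axis; yellow bands are the 2 CCAAT motifs and the black line is the start. Both edited libraries have no peak, and the peaks of the other 4 libraries span both motifs.

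PAX3 was 1 of many. Of the 2058 shared peaks, 18.7% were absent from both edited lists, and of all 6687 sgCtrl2 peaks 66.7% were. The edited lists were also shorter, with 2451 peaks for sgCCAAT2a and 2558 for sgCCAAT2b, against 4025 for sgCtrl1 and 6687 for sgCtrl2. Per the file headers, the edited libraries held 21.2 M and 28.2 M tags, against 13.9 M and 10.5 M in sgCtrl1 and sgCtrl2, and 1.22% and 1.46% of tags lay in peaks, against 2.40% and 3.10%. These library properties move with the guides and cannot be told apart from editing. Seen from the RH4 NFYB list, 19 of 3243 peaks were found in both edited lists and in no control, whereas 379 were found in both controls and in no edited list.

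Absent sites stood late in the control list. The authors' files give no peak heights, and the place of a peak in the sgCtrl2 file is used here as a stand-in for rank, which the file headers do not state. The median place was 1849 for absent peaks (lowest 24, highest 6062), 1337 for peaks in 1 edited list and 901 for kept peaks (3 to 6633). In the sgCtrl1 file the medians were 2009, 1496 and 866.5. Cut into quintiles by place, the share of shared peaks that were absent was 1.70% (0.686 to 3.47%) in the first, 3.88% in the second, 17.8% in the third, 32.8% in the fourth and 37.5% (32.8 to 42.3%) in the last. The kept share ran 93.9%, 83.5%, 65.2%, 53.2% and 47.7% in the same order. Of the 385 absent peaks, 362 were in the last 3 quintiles.

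**Figure D2:**
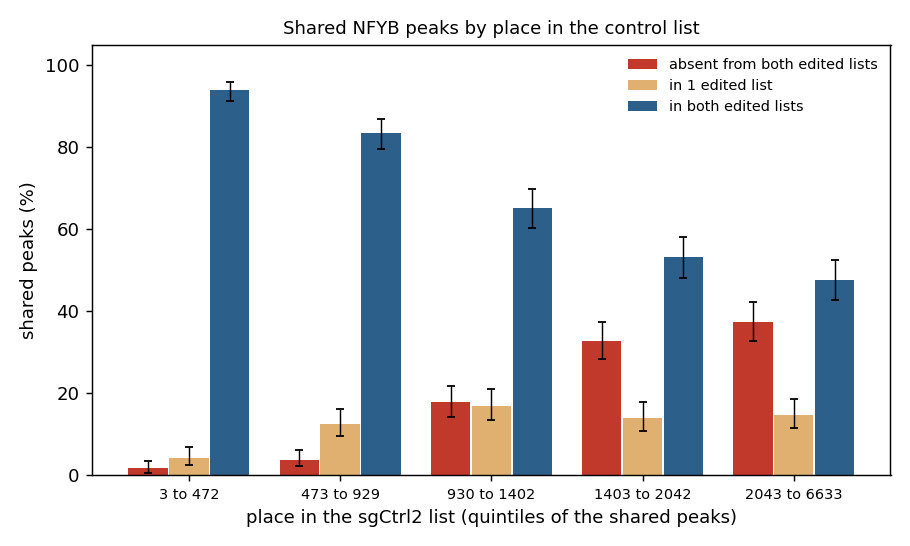
Percent of the shared NFYB peaks (y axis) that were absent from both edited lists, in 1 or in both, for quintiles by place in the sgCtrl2 list (x axis); bars carry 95% exact intervals of the peak count. The absent share is 1.70% at the top of the list and 37.5% at its end.

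The absent sites placed earliest often had an edited peak just beside them. Of the first 10 absent peaks by place, 6 had an edited peak within 1000 bp, and of the 13 placed before PAX3, 7 had. At PPM1B, a protein phosphatase, the nearest edited peak began 4 bp from the sgCtrl2 peak, and at PPP2R1A, the scaffold subunit of protein phosphatase 2A, it lay 7 bp away. At the histone pair H2AC6 and H2BC4 it lay 11 bp away, at G3BP1, which assembles stress granules, 40 bp, and at PHF20, a reader of methylated proteins, 49 bp. The centres of the sgCtrl2 and sgCtrl1 peaks themselves lay 178 bp apart at PPM1B and 185 bp apart at PPP2R1A. They lay 40 bp apart at H2AC6 and H2BC4, 21 bp at G3BP1 and 5 bp at PHF20, beside a median of 27 bp for absent peaks. These 5 lie just inside the rule. Just outside it, the kept peaks at ZNF77, KMT5C, TBC1D17, an unnamed site on chromosome 12 and PAIP2B overlapped an edited peak by 1, 2, 3, 4 and 5 bp. The sites at PPM1B, PPP2R1A and KHSRP, an RNA-binding protein of mRNA decay, were also wide in RH4, at 985, 802 and 761 bp. SUCO (814 bp) and RAB11B (955 bp), a GTPase of recycling endosomes, complete the 5 widest at genes, and each had an edited peak within 286 bp.

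Such neighbours were rare among the absent peaks as a whole. An edited peak lay within 200 bp of 11 of the 385 (2.86%) and within 1000 bp of 20 (5.19%, 3.20 to 7.91%), and the median gap was 151451 bp. The other 365 had no edited peak within 1000 bp, and among these PAX3 was number 7 by place. The other six were CDK4, the G1 cyclin-dependent kinase (place 199), ANKRD39 (443), the unassigned site at YJU2B (488), DTYMK with ING5 (566), COX14 with GPD1 (641) and ELL, an elongation factor of RNA polymerase II (692). The gap of PAX3 was reached or passed by 107 of the 385 absent peaks.

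**Figure D3:**
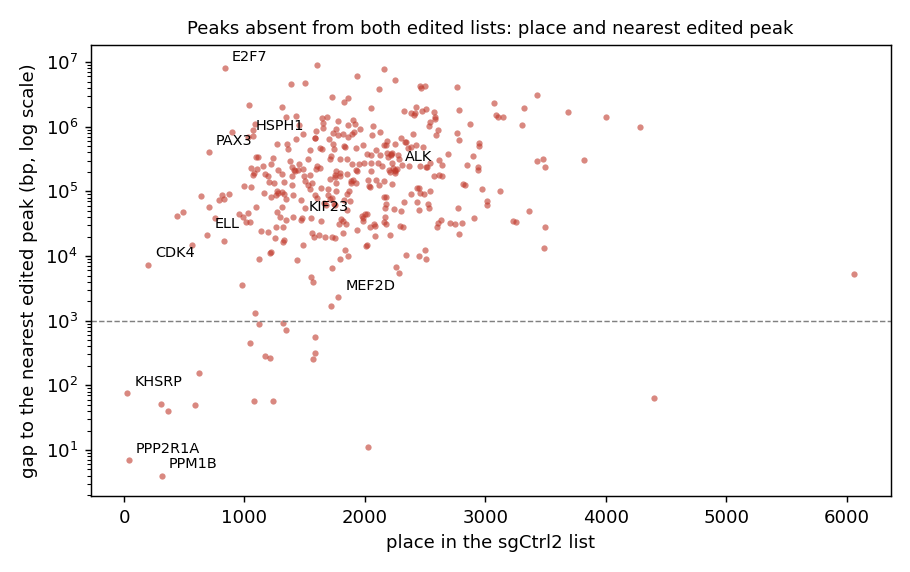
Each point is 1 of the 385 absent peaks, with its place in the sgCtrl2 list on the x axis and the gap in bp to the nearest peak of either edited list on a log y axis; the dashed line is at 1000 bp. The 20 points under the line include PPM1B at 4 bp, PPP2R1A at 7 bp and KHSRP at 76 bp, while PAX3 lies at 410290 bp.

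The authors' deposited tables of peaks with at least 2.5-fold more tags in sgCtrl2 split the absent sites further. This is the contrast that chose the sites, so the counts are a description. Of the 385 absent peaks, 267 (69.4%) were in the authors' deposited table for sgCCAAT2a and 250 (64.9%) in the one for sgCCAAT2b, against 29.4% and 20.8% of kept peaks, and 61.9% and 60.7% of all sgCtrl2 peaks. Of the absent peaks, 214 (55.6%) were above both edited libraries but not above sgCtrl1 in the authors' deposited tables, as were 17.0% of kept peaks, against 24.3% of all sgCtrl2 peaks. A further 86 absent peaks (22.3%) were listed over neither edited library in the authors' deposited tables. Among them were ALK, CHAC1, PPM1B, PPP2R1A, KHSRP, the site at YJU2B, and G3BP1, whose peak is the one in the promoter of LOC100652758. The combination that PAX3 showed, being above both edited libraries but not above sgCtrl1 in the authors' deposited tables, with no edited peak within 1000 bp, held for 203 absent peaks. At the place of PAX3 or before it these were 4, at CDK4, DTYMK with ING5, ELL and PAX3. The table of sgCtrl2 over sgCtrl1, which the choice of sites did not use directly, listed 4 absent peaks (1.04%, 0.284 to 2.64%) and 5 kept peaks (0.354%), against 36.2% of all sgCtrl2 peaks in the authors' deposited tables. Sharing with sgCtrl1 was required of both sets.

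At promoters, absent sites carried fewer CCAAT motifs than kept sites, although most carried at least 1. Absent peaks outside promoter windows had no sequence here and were not searched. Of the absent peaks, 270 overlapped a RefSeq promoter window of 300 bases, and in 86.7% (82.0 to 90.5%) of these a window held CCAAT on either strand. For kept peaks it was 96.9% (95.6 to 97.9%) of 1028, and of all 35116 promoters 34.6% held it. A peak may overlap several windows; among peaks with 1 window only, 85.6% of 188 absent and 96.2% of 690 kept peaks had a motif. Windows with 2 or more motifs were found for 33.5% (26.8 to 40.7%) of these absent peaks and 67.8% (64.2 to 71.3%) of these kept peaks, against 10.8% of all promoters. No promoter sequence of chromosome 8 was used here.

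To compare stretches of one length, motifs were counted inside the peaks that lay wholly in promoter windows, each 197 bp long. The absent peaks averaged 1.31 ± 0.67 motifs (SD over 159 peaks), peaks in 1 edited list 1.54 ± 0.70 (104 peaks) and kept peaks 2.01 ± 1.01 (602 peaks). The SD here is among peaks of 1 library. A single motif was found in 58.5% (50.4 to 66.2%) of the absent peaks, 46.2% of those in 1 edited list and 30.9% (27.2 to 34.8%) of the kept peaks. At least 2 were found in 34.0% (26.6 to 41.9%) of the absent peaks, 52 of the 104 in 1 edited list and 66.6% (62.7 to 70.4%) of the kept peaks. In a stretch of 197 bases centred 85 bp before the start, 7.58% of all promoters held 2 or more and 27.4% held any. Peaks with 4 or more motifs numbered 0 of 159 absent (upper limit 2.29%), 0 of 104 in 1 edited list (3.48%) and 40 of 602 kept.

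**Figure D4:**
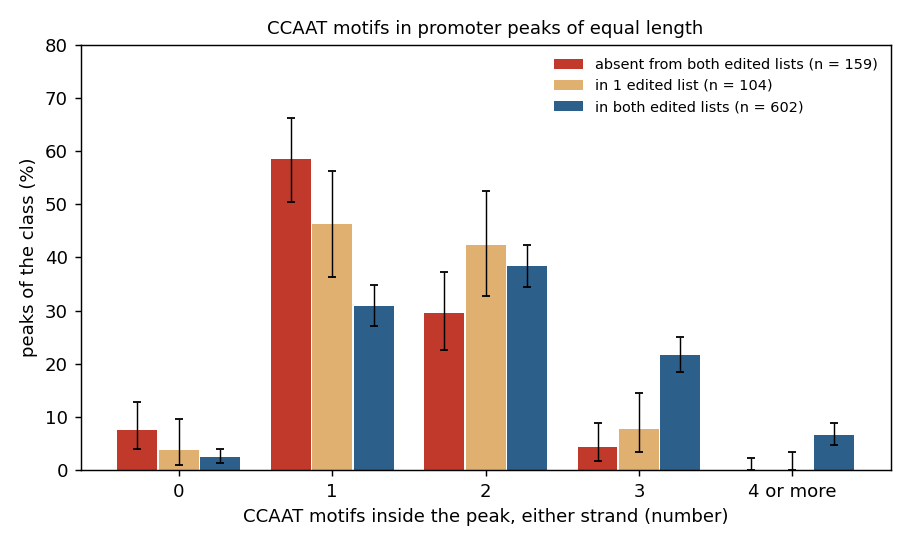
Percent of promoter peaks (y axis) with 0, 1, 2, 3 or at least 4 CCAAT motifs on either strand inside the 197 bp peak (x axis), for absent peaks (159), peaks in 1 edited list (104) and kept peaks (602); bars carry 95% exact intervals. A single motif is the commonest count among absent peaks, at 58.5%, and 2 motifs among kept peaks, at 38.4%.

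Read the other way, the share of these promoter peaks that were absent was lower with each further motif. It was 38.7% (21.8 to 57.8%) of 31 peaks with no motif, 28.4% (23.6 to 33.7%) of 327 with 1, 14.6% (10.9 to 18.9%) of 322 with 2, 4.83% (1.96 to 9.69%) of 145 with 3 and 0 of 40 with at least 4, whose upper limit was 8.81%. The number of motifs moved with place: at least 2 were found in 83.9% of kept peaks of the first quintile and 47.1% of those of the last. Within the last 3 quintiles alone, at least 2 were found in 32.9% (25.4 to 41.0%) of 149 absent and 51.6% (45.3 to 57.8%) of 256 kept peaks. In that part the absent share was 35.9% (29.9 to 42.2%) with 1 motif, 27.3% (20.6 to 34.9%) with 2 and 12.2% (4.08 to 26.2%) with 3. The intervals for 1 and 2 motifs overlap, as do those for 2 and 3. With 1 and 2 motifs it was 23.9% and 20.3% in the third quintile, 36.1% and 31.2% in the fourth and 50.7% and 33.3% in the last. In the second quintile it was 3.85%, 3.45% and 4.65% with 1, 2 and 3 motifs. Peaks were not matched by place within the last 3 quintiles.

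**Figure D5:**
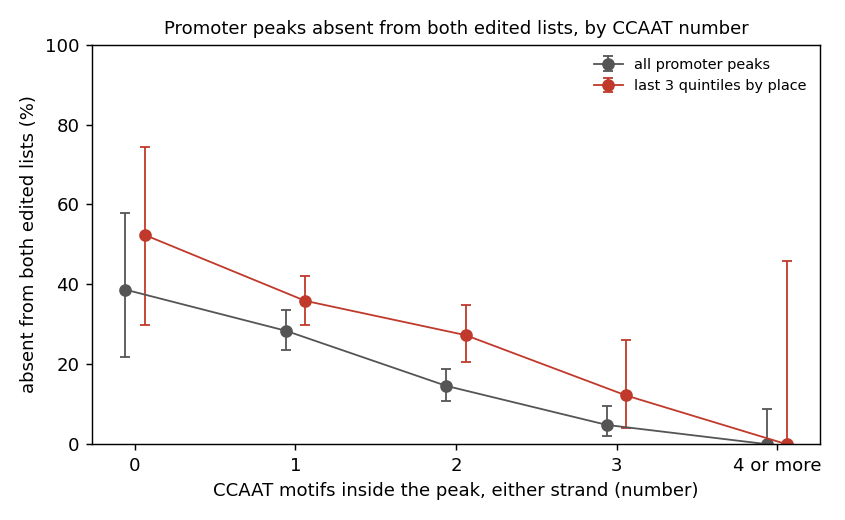
Percent of shared promoter peaks absent from both edited lists (y axis) by the number of CCAAT motifs inside the peak (x axis), for all such peaks and for the last 3 quintiles by place; bars are 95% exact intervals. Over all peaks the share is 28.4% with 1 motif, 14.6% with 2 and 4.83% with 3.

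Among the 159 absent peaks that lay wholly in promoter windows, those with most motifs had 3. Peaks only partly in a window are left out of this paragraph. They lay at YJU2B, at E2F7, a repressor of the E2F family, at COTL1, an actin-binding protein, at POLG, the mitochondrial DNA polymerase, at DDX10, an RNA helicase, at POU3F1, a POU-domain transcription factor, and at GM2A, the GM2 ganglioside activator. PAX3 had 2. Of the same 159 peaks, 12 had no motif, among them MOSPD3 and the sites between CCDC87 and CCS and between RPL18 and SPHK2.

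A larger share of the motifs in absent peaks lay within 50 bp of the peak centre, but the nearest motif of a peak did not lie closer. Most flanks searched were about as frequent in absent as in kept peaks. Peak centres lay a median of 81 bp before the start for absent and 88 bp for kept peaks. Of all motifs inside the promoter peaks, 76.9% (70.6 to 82.5%) were within 50 bp of the peak centre in absent and 66.7% (64.0 to 69.4%) in kept peaks. These shares are over motifs, and kept peaks held more motifs each. The nearest motif in any window that a peak overlapped lay a median of 28.5 bp from the centre for 234 absent peaks. For 996 kept peaks it lay 24 bp away. Neighbouring motifs were a median of 43 bp apart in absent peaks (61 pairs) and 40 bp in kept peaks (625 pairs). The longer form CCAATCA made up 17.3% (12.4 to 23.1%) of 208 motifs in absent and 25.2% (22.7 to 27.7%) of 1212 in kept peaks, with intervals that overlap. It was in a window of 20.4% of absent and 46.4% of kept peaks at promoters, against 6.95% of all promoters. In PAX3 the upstream motif has this form. A G or A stood before CCAAT in 73.6% (67.0 to 79.4%) of absent and 77.1% of kept motifs, and the kept share lay inside the interval of the absent one. CCAATC made up 51.0% of absent and 49.6% of kept motifs, and CCAATGA 11.5% and 10.6%. CCAATCAG, a part of the CCAATCA count, made up 10.6% (6.75 to 15.6%) of absent and 15.1% (13.1 to 17.2%) of kept motifs.

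Absent promoter peaks were richer in G and C than kept ones, as were peaks in 1 edited list. The median content was 69.5% (quartiles 65.7 to 74.4%) in absent peaks, 68.3% in those in 1 edited list and 64.5% (59.9 to 69.0%) in kept peaks. Within the last 3 quintiles by place the medians were 69.5%, 67.5% and 62.9% in the same order. GGGCGG, the GC box bound by the SP family of factors, was found on either strand in 81.1% (74.2 to 86.9%) of absent peaks, 83.7% (75.1 to 90.2%) of those in 1 edited list and 71.9% (68.2 to 75.5%) of kept peaks. In the 197-base stretch of all promoters it was found in 40.0%.

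In RH4 cells the absent sites had narrower NFYB peaks and more often lacked NFYC, the partner subunit. Neither width nor NFYC took part in the choice of sites, though an RH4 NFYB peak was required of both sets. The median NFYB width in RH4 was 360 bp (quartiles 266 to 424 bp) for absent, 420 bp for sites in 1 edited list and 458 bp (394 to 522 bp) for kept sites. An RH4 NFYC peak overlapped 336 of 385 absent peaks (87.3%, 83.5 to 90.4%), 93.4% of those in 1 edited list and 99.1% (98.4 to 99.5%) of kept peaks, against 37.4% of all sgCtrl2 peaks. In the last 3 quintiles it was 86.7% (82.8 to 90.1%) of absent and 98.1% (96.8 to 99.0%) of kept peaks. The 49 absent sites without NFYC, which were placed highest at CDK4, had a median RH4 width of 257 bp, and the 13 kept sites without NFYC one of 251 bp.

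Over all places, absent and kept peaks lay at gene ends about equally often, and late in the list absent peaks did so more often. A protein-coding gene end lay within 1000 bp of 310 absent peaks (80.5%, 76.2 to 84.4%) and 1109 kept peaks (78.4%, 76.2 to 80.5%), against 43.4% of all sgCtrl2 peaks. In the last 3 quintiles the shares were 79.6% of 362 absent and 71.6% of 683 kept peaks, and in the last quintile 78.6% (71.2 to 84.8%) of absent and 57.7% (50.4 to 64.7%) of kept peaks. Promoter windows of 2 or more genes were overlapped by 15.8% (12.3 to 19.9%) of absent and 19.5% (17.5 to 21.7%) of kept peaks, and in the last quintile by 17.5% (11.9 to 24.5%) of absent and 9.69% (5.94 to 14.7%) of kept peaks, the reverse order. Absent sites were found on all 23 chromosomes with shared peaks. By number they ran from 4 on chromosome 18 to 56 on chromosome 1. These were 30.8% (9.09 to 61.4%) of 13 shared peaks and 26.3% (20.5 to 32.7%) of 213. By share they ran from 9.26% (3.08 to 20.3%) of 54 on chromosome X to 40.0% (16.3 to 67.7%) of 15 on chromosome 21.

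At the level of genes, 1955 protein-coding genes had a shared peak at an end, and 365 of these (18.7%) had an absent one, while 1361 had a kept one. The counts for the listed NF-Y programmes are small and are to be read beside that 18.7%. Cytosolic chaperones, at 16.7%, and serine and one-carbon genes, at 12.5%, lay near it. Genes without an absent peak include genes in 1 edited list. Of the genes of folding and stress in the endoplasmic reticulum, 0 of 17 with a shared peak had an absent one; 3 were in 1 edited list and 14, HSPA5 and HSP90B1 among them, were kept. Of the NF-Y subunits and promoter partners it was 0 of 7, with YY1 in 1 edited list and 6, NFYA and NFYC among them, kept. Cholesterol and fatty acid synthesis had 1 of 13, at FASN, the fatty acid synthase, where an sgCCAAT2b peak lay 254 bp away, and 11 kept. Mitosis had 1 of 16, at KIF23, a kinesin of cytokinesis, and 14 kept. DNA replication had 1 of 13, at GINS1, a subunit of the replicative helicase, with MCM6 and PCNA in 1 edited list and 10 kept. Serine and one-carbon genes had 1 of 8, at CHAC1, which degrades glutathione, and 6 kept. Cytosolic chaperones had 1 of 6, at HSPH1, a nucleotide exchange factor for HSP70, and 5 kept. These lists were written with earlier results of these data known, and counts this small are given without a test. The absent share of all shared peaks ran from 1.70% in the first quintile by place to 37.5% in the last. The lists were not matched by place.

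Few muscle and fusion-related genes had a shared peak, and none of those was kept. Of the myogenic regulators, PAX3 and MEF2D, a muscle transcription factor, had a shared peak absent from both edited lists, and 0 had a kept one. Of 22 genes in the list of PAX3-FOXO1 and its reported targets 3 had a shared peak, PAX3, ALK and OLIG2, and all 3 were absent. The MEF2D peak stood at place 1777, with an edited peak 2316 bp away. OLIG2 stood at place 2178 and ALK at place 2270, with gaps of 517024 and 224770 bp. In the quintile of MEF2D, the fourth, 32.8% of all shared peaks were absent, and in that of OLIG2 and ALK, the last, 37.5% were. In the authors' deposited tables MEF2D and OLIG2 were above both edited libraries but not above sgCtrl1, and ALK was in none. Transcriptional kinase and polymerase genes had 1 absent of 3, at ELL, while CCNK and MED13 were kept. Apoptosis genes and the marker lists of blood and liver cells had 0 shared peaks.

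After PAX3, the next absent sites by place at gene ends lay at TMEM141 (place 708), RBM4B (759), NEURL4 (791), FAM98C (815), EDF1, a sensor of collided ribosomes (829), ZBTB7A, a transcriptional repressor (831), and E2F7 (836). RH4 NFYC was found at all 7, and all 7 were in the authors' deposited table for sgCCAAT2a and 6, all but RBM4B, in that for sgCCAAT2b. The gap at E2F7, 7970526 bp, was the widest among these 7, and the narrowest was 16897 bp, at EDF1. Away from gene ends, the highest placed absent sites lay on chromosome 19 at 13747689 to 13747885, in a promoter window of YJU2B, on chromosome 3 at 49470024 to 49470220, in a promoter window of DAG1, which encodes dystroglycan, and on chromosome 7 at 105012952 to 105013148. Sites on chromosome 13 at 44141962 to 44142158 and on chromosome 3 at 128487899 to 128488095 followed. RH4 NFYC was found at all 5 of these.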

How the data were processed

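The files used are peak lists, deposited by the authors as positions in bp with a constant score of 1 and no heights, so the place of a peak in its file stands in for rank. Each RH30 library had its own HOMER findPeaks call (factor style, per the file headers), at 2-fold over an input that the headers do not identify further and 4-fold over 10000 bp around the peak. The tag threshold was 4 for sgCtrl1 and sgCtrl2, 5 for sgCCAAT2a and 6 for sgCCAAT2b. Peaks were 189 bp wide for sgCtrl1, 197 bp for sgCtrl2, 153 bp for sgCCAAT2a and 163 bp for sgCCAAT2b. These call settings also move with the guides and cannot be told apart from editing. The deposited differential tables keep sgCtrl2 peaks with a tag fold of 2.5 or more at a Poisson threshold of 0.001, per the file headers. For RH4, the sources used here do not give which tool called the peaks, and the peak names of the deposited NFYB list hold coordinates other than the listed positions. The submitters' processing notes name hg38, Bowtie2, MACS2 and HOMER. The 2 IgG libraries were not analysed here.

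Overlaps were computed with numpy 2.4.6 and intervals with scipy 1.17.1; 60 of 60 simulated overlap counts equalled bedtools 2.31.1, and the motifs of 200 of 200 simulated promoters were recovered. CCAAT was searched on both strands of the RefSeq promoters (GRCh38.p14). Gene ends are those of 20056 protein-coding genes. No set test was run. A result for 1 gene of the lists is not reported here. The members and gene lists were chosen with earlier results of these data known. Named genes followed a written rule: PAX3, the 20 highest placed, list genes, the 5 widest, the 5 highest away from genes, and those nearest the overlap rule; other names were chosen after their values were seen.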

Additional observations from a re-analysis of the deposited data

How the results depend on the processing

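With 1 library per guide no replicate could be left out. No paired analysis was possible because each group has 1 library. The 385 absent peaks, 18.7% of those shared, became 203 (34.3% of 591 shared) with 50% of both peaks shared and 589 (22.7% of 2594) with RH4 not required. The 50% rule was applied to sharing with sgCtrl1 and RH4 only, and absence from the edited lists stayed at 1 bp. It drops sites with an RH4 peak much wider than the 197 bp sgCtrl2 peak, and kept sites were wider in RH4. The other 7 alternatives gave 333 to 386, among them 365 when an edited peak within 1000 bp counted as present. The share at a gene end was 75.6% of absent and 74.5% of kept peaks with a window of 500 bp, 85.7% and 82.7% with 3000 bp, and 71.6% of kept peaks in the last 3 quintiles by place. RH4 NFYC was found at 66.0% of absent and 76.4% of kept peaks with 50% of both peaks shared, and at 98.1% of kept peaks in the last 3 quintiles. Promoter windows held CCAATCA for 20.4% of absent and 46.4% of kept peaks and 2 or more CCAAT for 34.8% and 71.3%. With at least 50% of the peak inside, 98.0% of kept peaks had CCAAT, and with the peak wholly inside and the motif in it 92.5% of absent peaks had. In all, 21 of 37 values stayed within 1.5 times a count or inside the interval of the share. The sign of the difference between absent and kept peaks in the shares at gene ends, with NFYC, over sgCtrl1 and with CCAAT held under the alternatives run for each. The alternatives by quintile, by 2 or more motifs, by peaks wholly inside and by the gap for NFYC were chosen after seeing the data. Depth is unknown for RH4, and without peak heights a lower signal cannot be told from a lost one.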

Other observations

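The genes below had absent sites and were picked from the 385 after their values were seen, not from a list. RH4 NFYB widths of all absent sites had quartiles of 266 and 424 bp. MSX1 and MSX2, homeobox repressors of differentiation, stood at places 1689 and 1709 with RH4 widths of 359 and 219 bp and 2 CCAAT motifs in each peak. ZIC1, a zinc finger factor of neural and somite development, stood at place 1823 (220 bp, 2 motifs), HEY2, a Notch target, at 2383 (290 bp, 2 motifs) and HES4 at 1748 (216 bp, 1 motif). In the authors' deposited tables MSX1, MSX2 and HES4 were above both edited libraries but not above sgCtrl1, and ZIC1 and HEY2 were above sgCCAAT2b only. All 5 had an RH4 NFYC peak.

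JUND and JUN, subunits of the AP-1 factor, also had absent sites, at places 1030 and 1978, each with 1 motif in the peak. The authors' deposited tables listed JUND over both edited libraries and JUN over neither. Genes named ZNF, a family added after the values were seen, had an absent site at 13 of 81 genes with a shared peak (16.0%), beside 18.7% of all protein-coding genes with one.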
